A study of Mus musculus with 3 samples.

Results

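Open chromatin at the ends of non-coding genes was examined in whole uteri of C57BL/6J wild-type female mice, 6 to 10 weeks old and untreated, on day 4 of gestation, shortly before implantation. Pregnancy was checked by flushing blastocysts from the uterus. Chromatin was mapped by FAIRE-seq, in which DNA not crosslinked to protein stays in the aqueous phase of a phenol extraction, so that nucleosome-depleted DNA is enriched. The series holds 3 DNA samples of this single group, and a single peak list that names no sample was analysed. Of its 12413 peaks, 578 (4.66%) were centred no more than 1 kb from an end of some gene that does not encode protein, and more than 1 kb from both ends of every protein-coding gene. The rule used positions only, not signal.

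Non-coding genes are of several kinds. Long non-coding RNAs (lncRNAs) are mostly made by RNA polymerase II from promoters like those of protein-coding genes. Transfer RNA genes are read by RNA polymerase III from promoter elements that lie inside the short gene itself. MicroRNAs are cut from longer transcripts, so that the annotated end of a microRNA gene is the end of its hairpin and often not the place where transcription starts. Pseudogenes are disabled copies of other genes.

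Start sequences of 6 lncRNA genes are shown because their peaks lay on them, and they are described below with their peaks. Each is the RefSeq window of 250 bases before to 50 bases after an annotated start in GRCm38.p6, 5′ to 3′ on the strand of the gene. Capitals mark the GC box GGGCGG, the CCAAT box, the E box CACGTG and the TATA box core TATAAA, on either strand. The first lies in a peak that also holds a start of Tet3, and the other 5 in peaks with no listed protein-coding start.
B230319C09Rik, chr6:83441505-83441804, plus strand: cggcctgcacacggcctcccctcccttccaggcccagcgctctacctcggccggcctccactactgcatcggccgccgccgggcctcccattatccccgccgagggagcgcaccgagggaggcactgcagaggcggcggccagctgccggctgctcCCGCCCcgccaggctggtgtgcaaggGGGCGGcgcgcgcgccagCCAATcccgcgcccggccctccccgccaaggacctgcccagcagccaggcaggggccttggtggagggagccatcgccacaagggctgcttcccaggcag
D130051D11Rik, chr15:85634346-85634645, plus strand: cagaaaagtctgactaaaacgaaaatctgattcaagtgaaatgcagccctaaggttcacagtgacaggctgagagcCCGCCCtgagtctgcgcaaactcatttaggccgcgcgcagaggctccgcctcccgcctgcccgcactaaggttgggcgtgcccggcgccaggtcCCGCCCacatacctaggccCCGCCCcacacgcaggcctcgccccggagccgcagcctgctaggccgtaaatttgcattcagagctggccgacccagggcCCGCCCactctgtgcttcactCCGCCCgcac
Snhg5, chr9:88522848-88523147, minus strand: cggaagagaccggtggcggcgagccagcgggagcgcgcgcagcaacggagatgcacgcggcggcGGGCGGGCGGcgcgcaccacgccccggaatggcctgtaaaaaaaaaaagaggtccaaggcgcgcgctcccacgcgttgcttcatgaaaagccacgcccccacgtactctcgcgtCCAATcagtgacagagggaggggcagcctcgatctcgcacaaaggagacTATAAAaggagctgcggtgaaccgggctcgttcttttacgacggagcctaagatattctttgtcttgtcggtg
Chaserr, chr7:73558346-73558645, minus strand: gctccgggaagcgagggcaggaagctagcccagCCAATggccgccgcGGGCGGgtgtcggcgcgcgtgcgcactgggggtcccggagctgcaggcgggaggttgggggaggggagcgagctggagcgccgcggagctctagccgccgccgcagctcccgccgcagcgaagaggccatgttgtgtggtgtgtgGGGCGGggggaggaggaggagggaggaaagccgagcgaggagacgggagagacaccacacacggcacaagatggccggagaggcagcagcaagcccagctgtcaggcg
Snhg15, chr11:6528711-6529010, minus strand: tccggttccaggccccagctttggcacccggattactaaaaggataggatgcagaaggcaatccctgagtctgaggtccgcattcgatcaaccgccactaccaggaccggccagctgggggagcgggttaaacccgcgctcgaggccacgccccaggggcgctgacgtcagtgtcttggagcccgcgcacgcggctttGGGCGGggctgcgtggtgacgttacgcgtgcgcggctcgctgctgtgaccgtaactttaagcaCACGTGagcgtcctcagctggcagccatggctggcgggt
Mir22hg, chr11:75461289-75461588, plus strand: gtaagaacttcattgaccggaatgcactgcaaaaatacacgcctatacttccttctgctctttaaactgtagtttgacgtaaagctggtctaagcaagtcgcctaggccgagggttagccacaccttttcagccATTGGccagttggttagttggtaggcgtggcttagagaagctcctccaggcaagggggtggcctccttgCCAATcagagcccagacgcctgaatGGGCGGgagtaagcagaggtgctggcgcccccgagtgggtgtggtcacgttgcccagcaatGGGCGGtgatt

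Mature sequences of 6 microRNAs with a peak beside their gene are shown because they are the widely studied ones of the set, 5′ to 3′, from RefSeq in GRCm38.p6. Capitals mark the seed, bases 2 to 8, which pairs with target messages.
mmu-let-7i-5p, chr10:122985698-122985719, minus strand: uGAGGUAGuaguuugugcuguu
mmu-miR-210-3p, chr7:141221407-141221428, minus strand: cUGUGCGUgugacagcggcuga
mmu-miR-193a-3p, chr11:79712009-79712030, plus strand: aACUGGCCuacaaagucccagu
mmu-miR-203-3p, chr12:112130927-112130948, plus strand: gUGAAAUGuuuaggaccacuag
mmu-miR-148a-3p, chr6:51269829-51269850, minus strand: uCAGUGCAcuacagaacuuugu
mmu-miR-212-3p, chr11:75173443-75173464, plus strand: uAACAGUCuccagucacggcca

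The list gives no spread between mice and no library depth, so the values below are descriptions of this list and no test between samples or gene kinds was made. Fold enrichment is the authors' value for each peak, taken as signal over a local background. The organ label was set against its markers: 10 of 12 uterine genes, among them Hoxa10, Hoxa11, Pgr, Hand2 and Nr2f2, carried at least 1 peak inside or up to 1 kb outside the gene, while 50.6% of all protein-coding genes did. The remaining uterine genes, Esr1 and Foxa2, carried none. None of 3 immune, 2 liver or 3 blastocyst marker genes had a peak, and 2 of 3 neural ones did, Tubb3 and Rbfox3. Their part in the values below was not tested.

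Most of the 578 peaks lay at lncRNA genes. The nearest end belonged to a lncRNA gene for 451 peaks (78.0%), to a pseudogene for 72 (12.5%), to a microRNA gene for 26 (4.5%) and to a tRNA gene for 15 (2.6%). Genes that RefSeq files as miscellaneous RNA had 9, small structural RNA genes 2, snRNA genes 2 and snoRNA genes 1. No peak was nearest to an rRNA, guide RNA or antisense RNA gene. For 51 peaks a second non-coding gene end lay within 1 kb, and such a peak was filed under the nearest. A further 1283 peaks lay within 1 kb of a non-coding gene end but also of a protein-coding one, so 68.9% of all 1861 peaks at non-coding gene ends are outside the set described here.

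The 578 peaks touched 600 of 27013 non-coding genes, or 2.22%. Among 12609 lncRNA genes the share was 3.51%, among 403 tRNA genes 5.96% and among 1228 microRNA genes 2.36%. It was 8.79% of 91 miscellaneous RNA genes, 18.2% of 11 structural RNA genes, 0.902% of 1330 snoRNA genes, 0.752% of 10233 pseudogenes and 0.602% of 996 snRNA genes. Of 21523 protein-coding genes, 43.4% had a peak centre within 1 kb of an end. When peaks shared with protein-coding ends were counted too, the share was 11.5% for lncRNA genes, 12.2% for tRNA genes, 7.41% for microRNA genes and 1.22% for pseudogenes. It was 24.2% for miscellaneous RNA genes, 45.5% for structural RNA genes, 2.56% for snoRNA genes and 1.2% for snRNA genes.

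**Figure D1:**
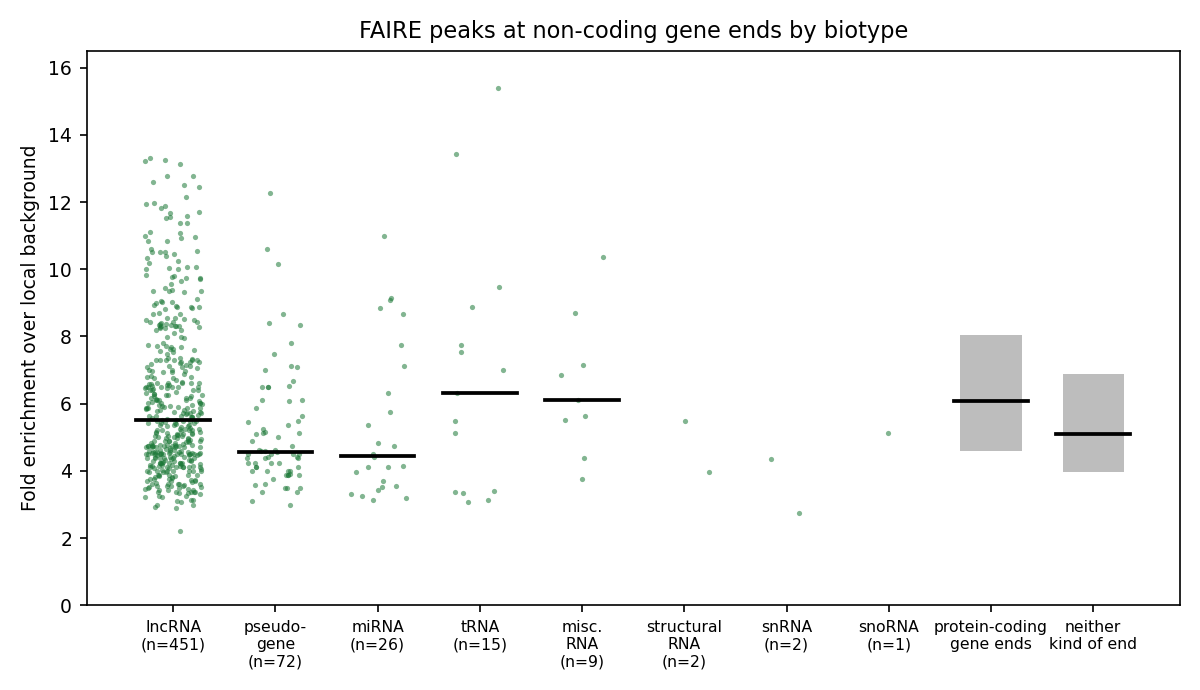
Fold enrichment over local background (y axis) of each of the 578 peaks at non-coding gene ends, by biotype of the nearest gene (points, spread sideways for visibility, with black lines for medians where a biotype has more than 2 peaks), and of the peaks at protein-coding gene ends and at neither kind of end (grey boxes, quartiles, with black lines for medians). The tRNA group holds the highest point, 15.4-fold, and the pseudogene and microRNA medians, 4.58 and 4.46, lie below the lncRNA median of 5.52.

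The signal at non-coding ends had a median fold enrichment of 5.37 (interquartile range 4.27 to 7.24, from 2.20 to 15.4). It was 6.08 (4.61 to 8.05) for the 8972 peaks at protein-coding ends and 5.09 (3.96 to 6.87) for the 2863 peaks at neither. Median width was 376 bp at non-coding ends, 451 bp at protein-coding ends and 356 bp at neither. Only 2 of the 578 peaks were among the 100 highest of the list by fold. At the edge of the rule, the peak just inside the 1 kb window lay 997.5 bp from the end of Gm16150 with 5.25-fold, and the nearest one outside lay 1002 bp from an end with 4.62-fold. The kept peak closest to a protein-coding end, at 1110018N20Rik, was 1013.5 bp away with 4.20-fold, and a peak left out at 998 bp had 4.21-fold.

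Most lncRNA peaks sat at gene starts. Strand was known for 376 of the 451, and 335 of these (89.1%) were nearer the start of the gene than its other end. The start is where the polymerase begins, and the count was made with the outermost annotated start of the gene. By the rule, the centres of these 335 peaks lay within 1 kb of the start, so nearness on that scale is set by the selection. The median distance of their summits from the start was 185 bp, and 119 (35.5%) lay within 100 bp and 256 (76.4%) within 500 bp. No reference placement within the window was computed. The median summit was 26 bp before the start, with 196 summits before it and 139 inside the gene. Among lncRNA genes over 2 kb long, 270 had a peak at the start only, 29 at the other end only and 3 at both, so 89.4% of those with a peak had it at the start only. For protein-coding genes over 2 kb this share was 95.3% of 7339 genes, but there all 12413 peaks were counted and not only the 578.

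**Figure D2:**
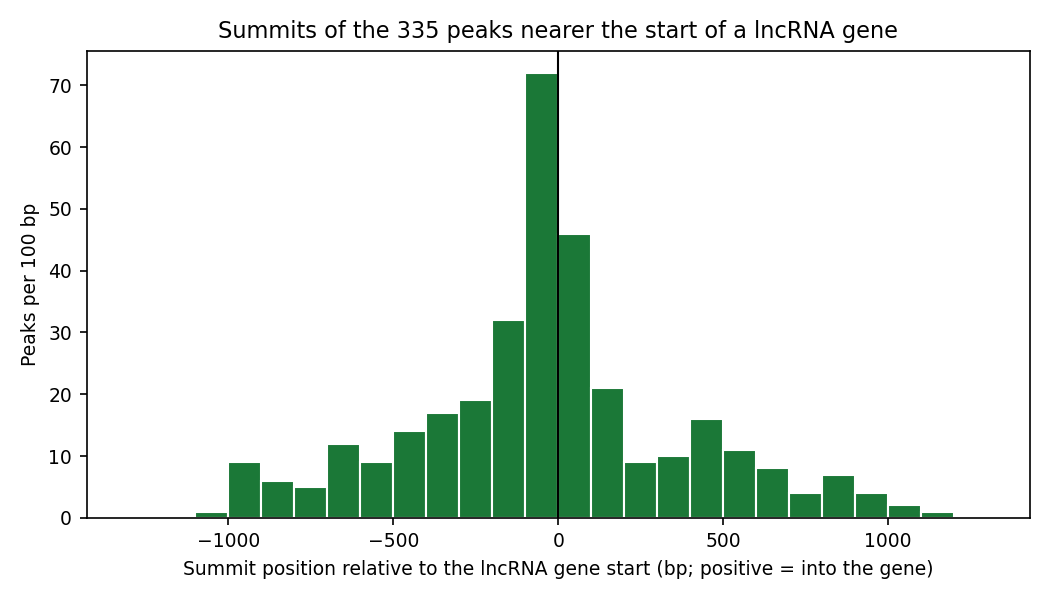
Number of peaks per 100 bp (y axis) by the distance in bp from the lncRNA gene start to the peak summit (x axis, positive into the gene), for the 335 peaks nearer the start. The counts are highest in the 100 bp on either side of the start, where 119 summits lie. They fall away to about 1 kb on both sides, where the rule sets the limit for peak centres.

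Peaks at lncRNA starts had a median of 5.59-fold (4.42 to 7.71) and a median width of 404 bp, while the 41 at the other end had 4.90-fold (4.14 to 6.57) and 323 bp. Among these 41, only 4 had another listed start of the same gene within 1 kb of the summit. The strongest at an other end were those of Gm33800 (11.1-fold), Gm14486 (11.1-fold) and Gm40034 (10.1-fold), all outside protein-coding genes. Gm33800 also had a peak of 8.26-fold 84 bp before its start, which lay inside Csrnp1 and held a listed start of that protein-coding gene.

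Many of the lncRNA peaks could as well be filed under a protein-coding gene. Of the 451, 279 (61.9%) lay inside the body of such a gene, and where both strands were known the lncRNA ran against its host in 201 cases and along with it in 7. Protein-coding genes often have several starts, and the rule kept peaks away from the outer ends only. Listed starts of protein-coding genes were checked on every chromosome except 18, which holds 13 peaks of the set. On those checked, 93 of 441 lncRNA peaks (21.1%) contained such a start, and 160 (36.3%) had one within 1 kb of the summit. Over all biotypes, 103 of 565 peaks (18.2%) contained such a start. The name "non-coding gene end" therefore describes where these 103 peaks lie but not which transcript uses them, which these data do not tell.

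Among lncRNA peaks, those that held a protein-coding start had a median of 7.06-fold, and the 348 without one had 5.16-fold. These groups overlap over most of their range. Of 183 peaks at the start of a lncRNA gene that ran against its host gene, 80 (43.7%) held a protein-coding start. Among the 6 that ran along with the host, 1 did.

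**Figure D3:**
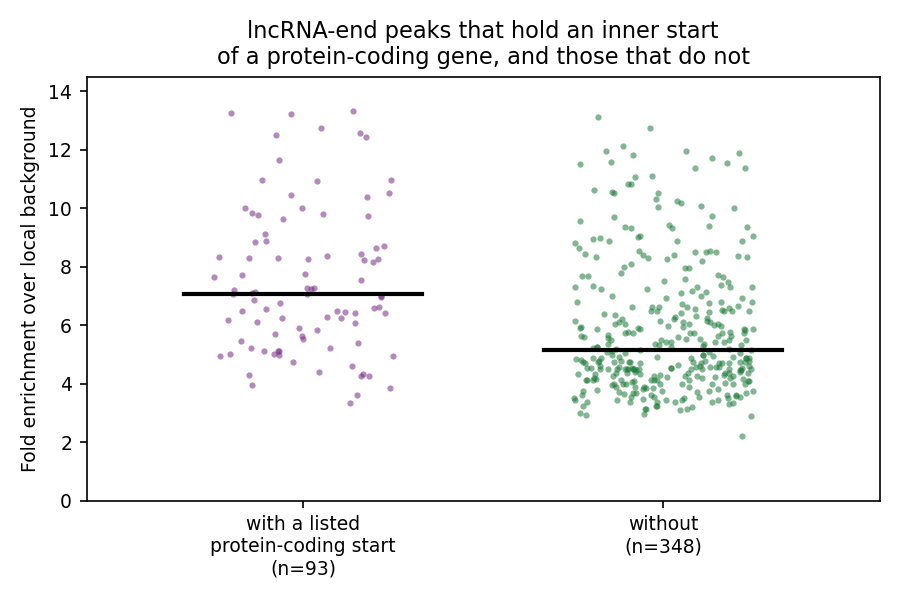
Fold enrichment over local background (y axis) of 93 lncRNA-end peaks that contain a listed start of a protein-coding gene and of 348 that do not (points, spread sideways for visibility, with black lines for medians). The medians are 7.06 and 5.16, and both groups reach past 13-fold.

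Several of the strongest lncRNA peaks were of this shared kind. The highest, 13.3-fold, lay at A930029G22Rik (chromosome 17, 69439160 to 69439552) and held an inner start of Akain1. At 13.3-fold came B230319C09Rik (chromosome 6, 83441428 to 83441899), whose summit was 70 bp before its start and whose peak held an inner start of Tet3, which oxidises methylated cytosine in DNA. Gm35417 (13.2-fold, chromosome 6, 108828290 to 108829160) shared its peak with Edem1, which works in disposal of misfolded proteins of the endoplasmic reticulum. Gm40564 (12.8-fold) shared its peak with Atp2c1, a Golgi calcium pump, 4930467K11Rik (12.6-fold) with Hsf2, a heat shock transcription factor, Gm46850 (12.5-fold) with Rusc2 and 5330439K02Rik (12.4-fold) with Letmd1.

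Others of similar strength held no listed protein-coding start. Gm36183 reached 13.1-fold (chromosome 13, 48227729 to 48228194), 33137 bp from the nearest protein-coding end, which belonged to Id4, an inhibitor of basic helix-loop-helix factors. At 1700028E10Rik (12.8-fold, chromosome 5, 151368391 to 151368997) the summit was 63 bp before the start, inside Stard13. Next came 2310034G01Rik (12.1-fold), Gm8273 (12.0-fold), 9430091E24Rik (11.9-fold), D130051D11Rik (11.9-fold) and Gm51701 (11.8-fold). The D130051D11Rik summit (chromosome 15, 85634359 to 85634883) lay 17 bp inside the gene and 52792 bp from the nearest protein-coding end, that of Wnt7b, a Wnt ligand.

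In the start windows shown, that of B230319C09Rik held 28 CpG dinucleotides and was 75.7% G+C, with 2 GC boxes (bound by Sp1 family factors) and 1 CCAAT box. The Snhg5 window held 36 CpG dinucleotides, and its observed CpG content was 1.26 times that expected from its C and G content. It also contained 1 TATAAA, the core of the TATA box. D130051D11Rik had 5 GC boxes in 300 bases, Chaserr 2 GC boxes and 1 CCAAT box, and Snhg15 1 GC box and 1 CACGTG, the palindrome bound by Myc and related factors. Mir22hg, with 12 CpG dinucleotides and 54.7% G+C, was the least CpG-rich of the 6.

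The lncRNA starts inside a peak were rich in G, C and CpG. In the promoter table, 209 windows of 191 lncRNA genes had their start inside one of these peaks. Their median G+C was 68.0% (interquartile range 62.7 to 73.7), against 48.3% (43.3 to 53.7) for all 11574 lncRNA windows. The median ratio of observed to expected CpG was 0.853 (0.719 to 0.946), against 0.245 (0.130 to 0.420) for all lncRNA windows. For 7206 protein-coding windows with their start in any peak the medians were 65.7% and 0.849. In the 150 lncRNA windows from peaks without a protein-coding start the medians were 67.0% and 0.827, and in the 59 from peaks with one they were 71.7% and 0.872. Base composition also affects how well DNA is amplified and sequenced, and its part in these values was not tested.

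**Figure D4:**
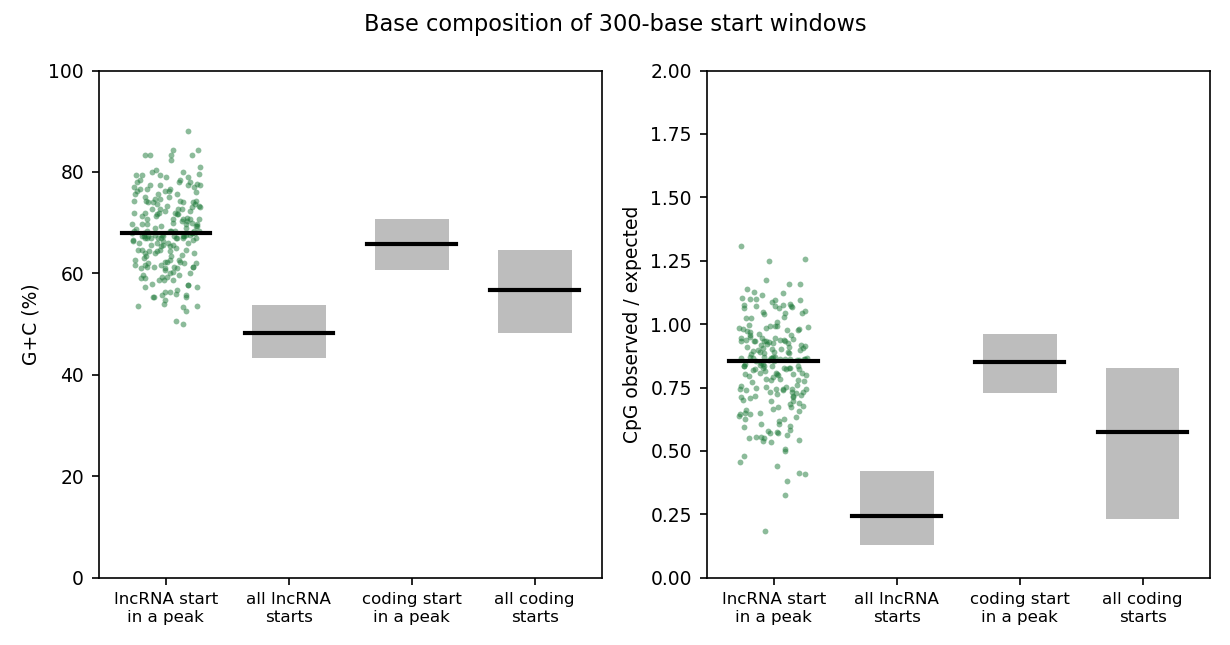
G+C content in percent (left) and the ratio of observed to expected CpG (right) of 300-base windows around annotated starts. Points are the 209 lncRNA windows whose start lies in a peak at a non-coding gene end, grey boxes are quartiles of all lncRNA windows, protein-coding windows with their start in a peak and all protein-coding windows, and black lines are medians. The lncRNA points centre on 68.0% and 0.853, near the protein-coding windows in a peak and above the box of all lncRNA windows.

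The GC box GGGCGG was present on either strand in 79.9% of the 209 windows, against 16.3% of all lncRNA windows and 35.9% of all 32619 windows of the table. The E box CACGTG was in 12.0%, against 5.90% of all lncRNA windows. The TATA box core was in 4.78%, against 15.5%, and TGTTCT, a single arm of the element bound by the progesterone and glucocorticoid receptors, in 6.22%, against 24.0%. The CCAAT box was in 25.4%, against 35.9%, and TGACTCA, the AP-1 site, in 4.78%, against 6.20%. The string GGTTCGA, a piece of the B box of tRNA genes, was in 1.91%, against 0.700%. Protein-coding windows with their start in a peak had similar shares for several of these. They were 78.9% for the GC box, 11.0% for the E box, 4.14% for the TATA box core, 8.42% for TGTTCT and 1.5% for GGTTCGA, with 37.0% for the CCAAT box and 2.47% for TGACTCA. None of these letter strings contains another, and a match is not evidence that a factor was bound. The 209 windows had a median G+C of 68.0%, against 48.3% for all lncRNA windows. The shares were not adjusted for base composition, and its part in them was not tested.

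Genes that host small nucleolar RNAs in their introns held 9 of these peaks. These RNAs guide chemical modification of ribosomal RNA, and their host genes are spliced like messenger RNAs. Of 20 listed hosts, 9 had a peak of the set, 6 had one shared with a protein-coding end and 5 had none, while 3.51% of all lncRNA genes had a peak of the set and 11.5% had one shared or not. The list was chosen with earlier results of these data known. Snhg5 had 11.6-fold (chromosome 9, 88522881 to 88523375) and Snhg15 10.5-fold (chromosome 11, 6528657 to 6529038), with summits 258 bp and 91 bp before the start. The other 7 were weaker: Epb41l4aos had 5.80-fold, Snhg4 4.69-fold, Snhg9 4.26-fold, Snhg8 3.54-fold, Snhg3 3.46-fold, Snhg7 3.31-fold and Snhg20 2.89-fold. The Snhg9 peak lay inside Rps2 and also held a listed start of that protein-coding gene. Every one of the 7 hosts with a known strand had its summit within 300 bp of the start.

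Other known lncRNA genes with a peak include several with a well-studied neighbour or host gene. Chaserr, which restrains its neighbour Chd2, a chromatin remodeller, had 11.5-fold over 993 bp (chromosome 7, 73557788 to 73558780), with the summit 164 bp before its start and 16813 bp from the nearest end of Chd2. Crnde had 8.30-fold, 1850 bp from an end of Irx5, a homeobox gene. Pvt1, downstream of the growth regulator Myc, had 7.70-fold (chromosome 15, 62037779 to 62038138), 47609 bp from Myc. Hk1os, which runs against the hexokinase gene Hk1, had 9.83-fold in a peak that also held an inner Hk1 start. Zfp286os had 10.6-fold, Zfp335os 7.31-fold, Stk35os1 6.40-fold, Sp3os 5.78-fold and Sox6os 4.99-fold, each in a peak inside the gene it is named after. Dio3os and Igf2os, in imprinted regions where the parental copies are used unequally, had 4.76-fold and 3.50-fold.

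Of 22 listed nuclear and imprinted RNA genes, of which 20 are filed as lncRNA and 2 as antisense RNA, 1 had a peak of the set, Pvt1. This share of 4.55% is close to the 3.51% of all lncRNA genes. Tug1 had a peak of 7.89-fold at an end shared with a protein-coding gene, and Airn, which silences genes near Igf2r on the paternal copy, had one of 6.93-fold inside the gene only. The other 19, among them Neat1, Malat1, Xist, Meg3 and H19, had no peak at an end or inside. Of 11 listed lncRNA genes that host microRNAs, 2 had a peak of the set, where the share of all lncRNA genes was 3.51%. They were Mir22hg with 4.71-fold, 17 bp before its start, and Dleu2, host of miR-15a and miR-16-1, with 4.23-fold, 509 bp before its start. Both are lower than the list median of 5.80-fold.

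Transfer RNA genes held the 2 strongest peaks of the whole set. The asparagine tRNA gene n-TNgtt14 had 15.4-fold (chromosome 5, 149228995 to 149229398) and the threonine tRNA gene n-TTcgt5 had 13.4-fold (chromosome 16, 13437042 to 13437405). The 3 letters in lower case in such a name are the anticodon. Next came n-TIaat17 (isoleucine, 9.48-fold), n-TRtcg5 (arginine, 8.88-fold), n-TRtct2 (arginine, 7.73-fold) and n-TLtaa3 (leucine, 7.53-fold). The 15 tRNA peaks ran from 3.06-fold to 15.4-fold with a median of 6.31, with 10 at 5.12-fold and above and 5 between 3.06 and 3.41-fold. No single amino acid made up the set: arginine had 3 of the 15 peaks, proline 2 and threonine 2, and 8 other amino acids had 1 each.

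The summits lay beside the tRNA genes rather than on them. In all 15 cases the summit was outside the gene, by 12 to 309 bp with a median of 197 bp, while the genes are 71 to 93 bp long. The rule allows 1 kb from an end, so most positions it allows lie outside genes this short. At microRNA genes 23 of 26 summits also lay outside the gene, with a median distance of 421.5 bp over all 26. Strand is not given for tRNA genes, so upstream and downstream could not be told apart. A second non-coding gene end was within 1 kb for 8 of the 15, as at n-TNgtt14, where the lncRNA gene 2310047D07Rik also ends. The peak at n-TRtct2 and a weaker one of 3.43-fold at Mir760 were 100 bp apart. Apart from n-TRtcg5, within Polg and with a protein-coding start in its peak, all the tRNA peaks lay outside protein-coding genes. Many tRNA genes have near-identical copies, so where reads could be split between them the values are uncertain.

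**Figure D5:**
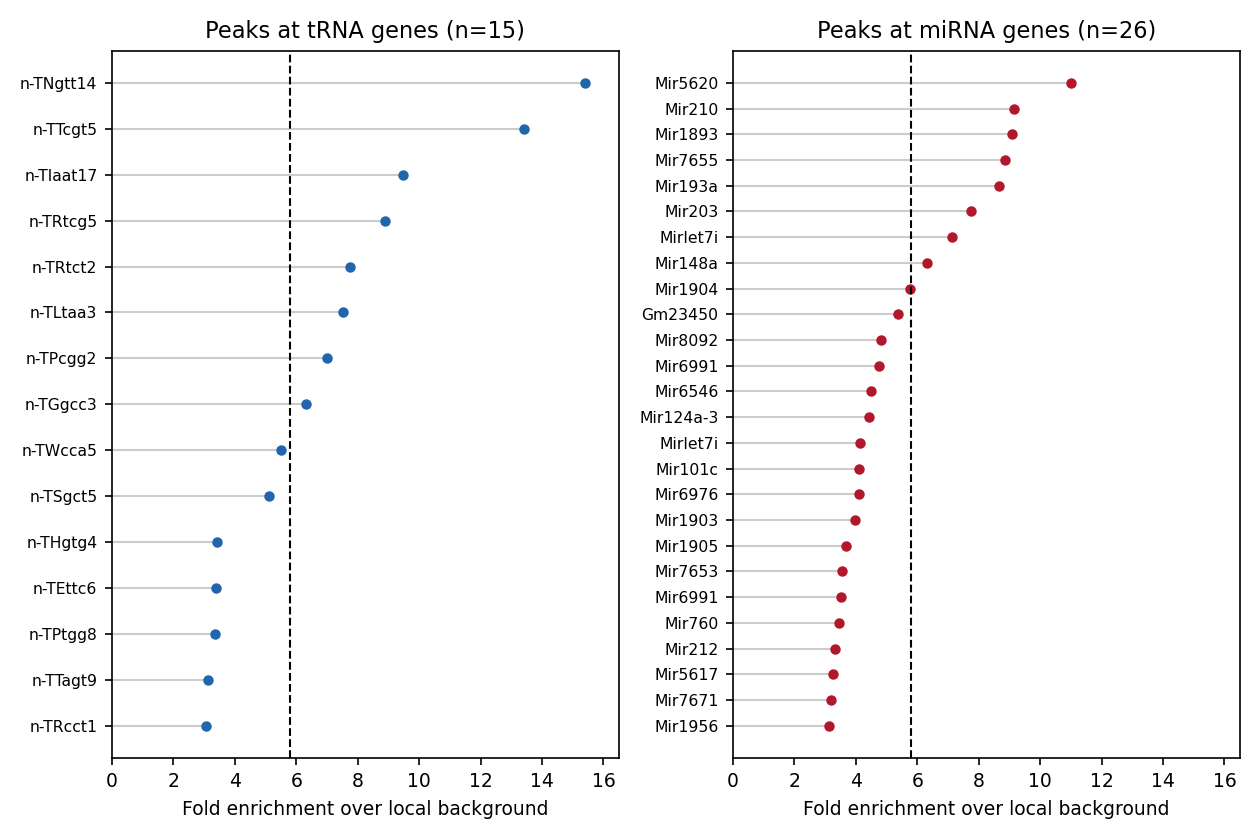
Fold enrichment over local background (x axis) of each peak nearest to a tRNA gene (left, 15 peaks) and a microRNA gene (right, 26 peaks), one row per peak with the gene named. Dashed lines mark the list median of 5.80, which 8 tRNA peaks and 8 microRNA peaks exceed.

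MicroRNA genes had weaker peaks on the whole, with a median of 4.46-fold over 26 peaks at 24 genes. Mature sequences were found for 22 genes, and no seed was shared between them.

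Mirlet7i, of the let-7 family of developmental timing microRNAs, had 2 peaks. One of 7.12-fold (chromosome 10, 122986117 to 122986627) had its summit 750 bp before the hairpin, and one of 4.14-fold (122985497 to 122985884) lay over the hairpin, 11 bp past its start. Its seed is shared by 10 other mature microRNAs of the table, let-7a to let-7g, let-7k, miR-98 and miR-1961. Of the 33 listed microRNA genes that have been studied in the uterus or decidua, 1 had such a peak, Mirlet7i. This share of 3.03% is close to the 2.36% of all microRNA genes. The other 32, among them Mir200a, Mir21a, Mir143 and Mir199a-2, had none at an end.

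Mir210, a microRNA induced by low oxygen, had 9.16-fold (chromosome 7, 141221737 to 141222071), 412 bp before the hairpin. Mir193a had 8.67-fold across 1006 bp (chromosome 11, 79710815 to 79711820), 725 bp before its hairpin. Mir203, known from stratified epithelium, had 7.76-fold (chromosome 12, 112130397 to 112130896), 176 bp before it. Mir148a had 6.33-fold (chromosome 6, 51270562 to 51271062), 936 bp before it, and its seed is shared with miR-148b and miR-152. This peak lay inside the protein-coding gene Gm38821. At Mir210, Mir193a, Mir203 and Mir148a the summit was before the hairpin, the side from which the primary transcript comes. Not all microRNA peaks lay on that side. Those of Mir212, Mir1903, Mir1956, Mir5617, Mir6976, Mir8092, Mir101c and Gm23450, and the stronger of Mir6991, were centred nearer the other end. The rest with a known strand were centred nearer the start.

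Mir124a-3, one of the neuronal miR-124 genes, had 4.42-fold, close to the microRNA median of 4.46. At the lower end was Mir212, with 3.33-fold in a peak that also had Mir132 within 1 kb. The miR-212-3p seed is the same as that of miR-132-3p. Mir760 had 3.43-fold, Mir7671 3.20-fold near Irf1 and Mir1956 3.13-fold, the lowest, in a peak that also held a start of Eif4e. The highest of all microRNA peaks was at Mir5620 (11.0-fold), but that peak also held a start of Clcn4, a chloride and proton exchanger. Mir1893 (9.09-fold) had the widest peak of the whole set, 1306 bp (chromosome 18, 6489902 to 6491207), inside Epc1. Whether it held a protein-coding start was not checked. Mir7655 (8.85-fold), Mir1904 (5.75), Mir8092 (4.82), Mir6976 (4.11), Mir1903 (3.96), Mir1905 (3.69) and Mir7653 (3.54) also lay within protein-coding genes, as did Gm23450 (5.36), Mir6546 (4.50) and Mir5617 (3.25). The Mir6546 peak also had the tRNA genes n-TGtcc1, n-TEctc5 and n-TDgtc3 within 1 kb. Mir6991 had 2 peaks, of 4.74 and 3.52-fold. In all, 16 of the 26 microRNA peaks (61.5%) lay inside a protein-coding gene. Mir101c had 4.11-fold over a local background of 72.4, against a list median of 8.59.

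Pseudogene peaks were weak and narrow, with a median of 4.58-fold and 300 bp against 5.52-fold and 393 bp at lncRNA genes. Of the 72, 20 (27.8%) were above the list median, against 206 of 451 (45.7%) lncRNA peaks. In 45 of 72 the computed background was the lowest in the list, 7.002 (equal to 2 decimals). The same value held for 86 of 451 lncRNA peaks and 2155 of all 12413. Whether this shared value is a measured local level or a lower limit set in peak calling was not tested. How low the local signal was at these peaks is therefore not known, and their fold is a ratio to the same number. The strongest pseudogene peaks lay at Gm18763 (12.3-fold, chromosome 18, 7692906 to 7693339) and Magef1 (10.6-fold, chromosome 16, 21333080 to 21333507). Next came Bambi-ps1 (10.2-fold, chromosome 2, 122467673 to 122468076) and Gm15730 (8.67-fold). Magef1 is filed as a transcribed pseudogene in this annotation. Pseudogenes can share reads with the gene they were copied from, so these values are uncertain where the copies are close.

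Several pseudogene peaks lay close together. Between 145 and 150 Mb of chromosome 4, 9 of 59 peaks (15.3%) belonged to the set, against 4.66% of the whole list. This stretch was picked with its value known, and between 30 and 35 Mb of chromosome 2 the count was 9 of 88 (10.2%). Those on chromosome 4 lay at pseudogenes such as Gm13238 and Gm13243 (6.12-fold each) and Gm13241 (5.62-fold), and at the lncRNA genes Gm13165 and Gm13205. Of the 9 on chromosome 4, 8 had the shared lowest computed background of the list. The nearest protein-coding genes there include Zfp980, Zfp992, Zfp984 and Zfp978, which encode zinc finger proteins.

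Small structural RNA genes had 2 peaks. Terc, the RNA template of telomerase, had 5.50-fold (chromosome 3, 96414436 to 96414761) with the summit inside the gene, and Rn7s2, a 7SL RNA gene of the signal recognition particle, had 3.96-fold (chromosome 12, 69361439 to 69361672) with the summit 30 bp outside. Of 17 matched genes for RNA polymerase III products and RNA-protein particles, these 2 (11.8%) had a peak of the set, where the share of all non-coding genes was 2.22%. In that list 7 are structural RNA genes, a biotype with a share of 18.2%, and 9 are snRNA genes, with 0.602%. A further 4 of the 17 had a peak shared with a protein-coding end: Rpph1 (6.78-fold), the RNA of ribonuclease P, Rmrp (3.86), Rn7s1 (3.53) and Rnu12 (6.83), a minor spliceosome RNA. The 2 snRNA peaks, at Gm25064 (4.36-fold) and Gm23296 (2.75-fold), were weak, and the only snoRNA peak, at Snord58b (5.12-fold), lay inside its host Rpl17, a ribosomal protein gene.

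Genes filed as miscellaneous RNA had a median of 6.12-fold over 9 peaks. The strongest were 4930451G09Rik (10.4-fold) within Anks3, Gm4633 (8.69-fold) within Cd47 and B430319F04Rik (7.16-fold) within Ampd3, and each of these peaks also held a listed start of its host gene. Next was 9130213A22Rik (6.85-fold) within Hes7, with no listed protein-coding start in the peak. The other 5 peaks all lay on chromosome 12, at 6030426L16Rik, Gm5953 (2 peaks), 3110053B16Rik and Gm4983, between 17992672 and 21784731. Of these 5, 4 had the shared lowest computed background of the list.

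The peaks were spread over distance and chromosomes. From the nearest protein-coding end, 116 lay 1 to 2 kb away, 105 lay 2 to 5 kb, 100 lay 5 to 10 kb, 185 lay 10 to 50 kb and 72 lay farther, and the median fold in these bands ran only from 5.17 to 5.50. The set made up 7.13% of all peaks on chromosome 12, the highest share, and 2.76% on the X chromosome, the lowest, where 7 of 254 peaks belonged to it. No gene had more than 2 peaks of the set, and 33 had 2. Such pairs were often unequal, as at Gm51701, with 11.8 and 4.16-fold separated by 272 bp, and 1700052K11Rik, with 8.80 and 3.88-fold separated by 495 bp. After Mir1893, the widest peaks were those of Gm41914, 1294 bp with 5.43-fold, and AY036118, 1263 bp.

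A pair of peaks stood on a very high background. AY036118, with an end of the 18S ribosomal RNA related sequence Rn18s-rs5 within 1 kb of its peak, had the highest pileup of the set, 426, over a background of 193, and the lowest fold, 2.20 (chromosome 17, 39847472 to 39848734). The other is the Mir101c peak on chromosome 9 (3037725 to 3038240), with a pileup of 301. Both exceed 5 times the list median of background, as do 30 peaks in the whole list, and without such peaks the set held 576.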

How the data were processed

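FAIRE DNA of whole uteri was sequenced in 3 samples of a single group, gestation day 4, numbered from their titles. Per the labels, 100 mg of frozen tissue was crosslinked for 9 min in 1% formaldehyde and sheared to about 300 bp. The growth protocol speaks of 3 mice, and the design text of the series describes RNA from 4 mice. Per the submitters' processing notes, FastQC, Bowtie2, HOMER and MACS2 were used with build GRCm38.p5. Versions, threshold, any input control and any pooling were not given in the sources used here. The deposited peak table holds, per the file headers, a pileup (coverage signal), a fold enrichment (a ratio) and −log10 values of the p-value and q-value. It names no sample, and depth is unknown. A further 6 unnamed columns were empty.

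Genes came from RefSeq GRCm38.p6: 49214 genes on 20 chromosomes, after 340 with a start below 3 Mb (scaffold coordinates) were left out. Patch releases leave chromosome coordinates as they are. Gene strand and starts came from RefSeq start windows and microRNA records, which matched 351 of the 422 lncRNA genes nearest to a peak. Peak centres were assigned to the nearest non-coding gene end within 1 kb. Local background was computed as (pileup + 1) / fold − 1. Immunoglobulin and T cell receptor segments were not counted as non-coding genes, and counting them would add 0 peaks. The peak assignment was tested on simulated data. No statistical test was run, since the list has no replicates and peaks are not replicates of a condition. Text names the 15 strongest peaks, up to 4 per biotype, the 3 widest, microRNA, snRNA and snoRNA members, and members of lists of known genes, and any other gene was picked with its value known. The members and lists were chosen with earlier results of these data known. Python 3.11.15, pandas 2.3.3, numpy 2.4.6 and matplotlib 3.10.9 were used.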

Additional observations from a re-analysis of the deposited data

How the results depend on the processing

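The 6 summary values were recomputed under 12 other settings, 1 of them chosen after seeing the data, in which inner protein-coding starts also counted as ends; 45 of 72 values stayed within 1.5 times (counts) or the 95% interval of the main value (order statistics for the median, Wilson for shares, covering the number of peaks only), and 27 moved. The main values were 578 peaks at 600 genes, a median of 5.37-fold, 78.0% at lncRNA genes, 55.4% inside protein-coding genes and 87.5% nearer the gene start (lncRNA and microRNA genes with a strand). With inner starts counted as ends, the median was 5.00-fold, the lncRNA share 72.1% and the share inside protein-coding genes 36.3%. With 5 kb kept from protein-coding ends, 357 peaks at 374 genes remained and 42.0% lay inside protein-coding genes. In the 6206 peaks of highest fold there were 247 peaks at 265 genes, with a median of 7.70-fold, 83.4% at lncRNA genes and 91.0% nearer the start. In the 6206 of highest −log10 q there were 248 peaks at 264 genes, with 7.70-fold, 85.1% at lncRNA genes and 60.5% inside protein-coding genes. With only curated gene names there were 111 peaks at 124 genes, with 4.74-fold, 38.7% at lncRNA genes, 32.4% inside protein-coding genes and 83.3% nearer the start. Without pseudogenes the lncRNA share was 89.1% and 59.5% lay inside protein-coding genes. Windows of 500 bp gave 93.1% nearer the start, and windows of 2 kb gave 83.5%, with 50.8% inside protein-coding genes. Settings that keep fewer peaks or genes lower the counts by construction. Keeping the peaks of highest fold also raises the median fold by construction, and leaving out pseudogenes raises the lncRNA share. The setting of curated names left out non-coding genes with names of the Gm, LOC or Rik kind. For the other shares and medians the cause was not tested. No paired analysis was possible because the list names no sample, and for the same reason no mouse could be left out in turn.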
